A study of Mus musculus with 8 samples.

Results

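The 27 genes described here carry out signalling by gamma-aminobutyric acid (GABA) and glycine, from synthesis of the transmitter to its receptors. They were taken by name, from 54752 gene identifiers in the count tables, as subunits of GABA-A, GABA-B and glycine receptors, GABA synthesis and uptake genes, glycine and chloride transporters and postsynaptic scaffold genes. All 27 were found, and 26 passed the filter on low counts. The samples were E15.5 fetal brains of wild type C57BL/6 mice (C57BL/6Slac in the study's methods), 4 from the stress group, whose mothers went through chronic unpredictable mild stress in pregnancy, and 4 from the control group, whose mothers did not, with 2 females and 2 males in each group. RNA was captured by its poly(A) tail and each brain gave 1 library of between 25320109 and 29105710 counts. The study's sample sheet puts the control brains in 1 litter and the stressed brains in another, so that condition and litter cannot be told apart and the p-values measure the spread between littermates. Its text names the tissue as whole brain, and the sheet has an entry that may mean a part of it.

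GABA and glycine are the main inhibitory transmitters of the mature central nervous system, and both open chloride channels built of subunits. In the fetal brain chloride is high inside young neurons, where import by NKCC1 (Slc12a2) outweighs export by KCC2 (Slc12a5), and GABA then depolarises these cells. The mRNA of both genes was present in these brains, with Slc12a5 the higher per kilobase of exon. Glycine signalling is strongest in brain stem and spinal cord, where glycinergic neurons carry the transporter GlyT2 (Slc6a5).

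Stressed brains held less mRNA of most receptor subunit genes, of the chloride exporter and of the uptake genes Slc6a11 and Slc6a9 than control brains, while the genes that make GABA and load it into vesicles did not pass the test. Of the 26 members tested, 14 were down-regulated, 1 was up-regulated and 11 did not pass, where a gene was called up- or down-regulated at an adjusted p under 0.05 in edgeR's quasi-likelihood test. By the same rule 7.27% of the 17865 genes in the fit were down-regulated and 6.49% were up-regulated. The median log2 fold change (Log2FC, stress vs. control) was -0.19 over the 26 members and 0.0015 over all genes tested. Estimates were below 0 for 23 of the 26, and the 4 control values and 4 stress values did not overlap for 11 of them, against 16.4% of all genes tested. In these bulk samples fewer cells of a type and less RNA per cell cannot be told apart.

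**Figure D1:**
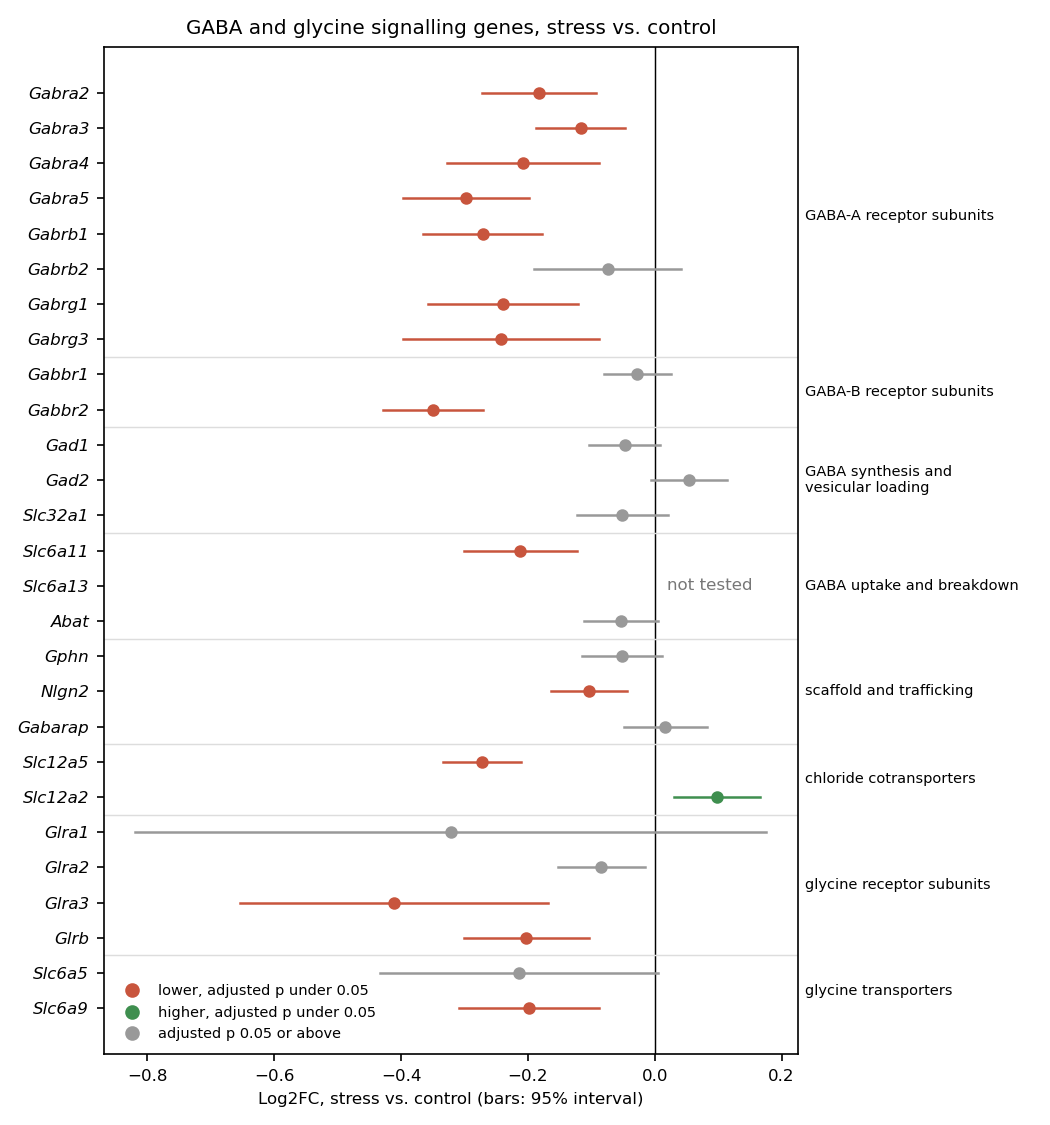
Log2FC (stress vs. control) of each member on the horizontal axis, grouped by role, with points for the estimate and bars for its 95% interval. Red points are the 14 down-regulated members, green the 1 up-regulated member and grey the 11 that did not pass, and Slc6a13 was not tested.

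The regions at the start sites of members on which the results below turn are shown here, 250 bases before to 50 bases after each start, from RefSeq on GRCm38.p6. RefSeq windows were matched for 24 of the 27 members. Gabra4 and Gabrb1 are shown because they start head to head on opposite strands of chromosome 5, with the RefSeq start of Gabrb1 387 bases inside Gabra4. Slc12a5, with 2 listed starts, and Gabbr2 had the smallest adjusted p of the members. Capitals mark the GC box (GGGCGG) and the CCAAT box (CCAAT), each searched on both strands with overlaps counted, and all other bases are in lower case.
Gabra4, chr5:71658259-71658558, minus strand: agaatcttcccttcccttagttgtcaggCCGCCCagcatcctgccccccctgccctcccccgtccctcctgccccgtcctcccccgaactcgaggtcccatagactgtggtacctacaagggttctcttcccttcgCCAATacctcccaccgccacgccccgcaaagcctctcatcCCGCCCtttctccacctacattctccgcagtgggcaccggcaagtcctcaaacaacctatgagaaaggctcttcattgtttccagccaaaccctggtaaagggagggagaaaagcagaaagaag
Gabrb1, chr5:71657671-71657970, plus strand: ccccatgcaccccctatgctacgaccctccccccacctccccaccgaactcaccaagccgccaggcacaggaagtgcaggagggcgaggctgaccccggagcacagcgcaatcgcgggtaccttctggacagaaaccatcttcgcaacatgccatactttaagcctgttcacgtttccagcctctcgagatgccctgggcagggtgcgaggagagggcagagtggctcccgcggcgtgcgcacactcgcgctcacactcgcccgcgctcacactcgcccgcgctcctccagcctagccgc
Slc12a5 (start further upstream), chr2:164960596-164960895, plus strand: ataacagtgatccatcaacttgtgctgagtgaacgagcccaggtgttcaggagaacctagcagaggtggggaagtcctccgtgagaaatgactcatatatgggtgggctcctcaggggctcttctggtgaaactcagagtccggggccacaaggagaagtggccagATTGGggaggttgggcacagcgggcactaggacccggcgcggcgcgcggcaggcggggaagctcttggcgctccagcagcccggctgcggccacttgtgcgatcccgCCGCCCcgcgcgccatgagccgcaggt
Slc12a5 (start further downstream), chr2:164967738-164968037, plus strand: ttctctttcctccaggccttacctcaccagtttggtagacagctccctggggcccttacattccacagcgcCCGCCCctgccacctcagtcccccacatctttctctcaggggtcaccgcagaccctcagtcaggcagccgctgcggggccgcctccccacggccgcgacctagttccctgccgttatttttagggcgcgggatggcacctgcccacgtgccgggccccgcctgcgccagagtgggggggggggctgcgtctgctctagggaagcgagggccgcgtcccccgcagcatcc
Gabbr2, chr4:46991665-46991964, minus strand: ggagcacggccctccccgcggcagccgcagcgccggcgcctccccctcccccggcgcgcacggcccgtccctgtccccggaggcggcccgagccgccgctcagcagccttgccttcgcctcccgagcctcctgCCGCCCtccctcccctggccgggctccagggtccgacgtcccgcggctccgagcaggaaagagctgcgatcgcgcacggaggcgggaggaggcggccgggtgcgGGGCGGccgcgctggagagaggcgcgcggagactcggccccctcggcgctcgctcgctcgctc
Of the windows shown, the one of Gabrb1 held neither motif, and the others held 1 or 2 GC boxes each. A GC box was present in a window of 16 of the 24 members and in 35.7% of all 32851 windows. A CCAAT box was present for 10 of the 24 and in 37.4% of all windows. Members with several listed starts had more than 1 window to hold a match.

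Levels of different genes were compared as CPM, counts scaled to the size of each library, per kilobase of exon. Gabarap, which encodes a small protein that binds GABA-A receptors and takes part in autophagy, was highest at 96.1 in control, followed by Gabbr1 at 64.0 and Nlgn2 at 55.2. Gabarap was at 184, 176, 178 and 171 CPM in control and 173, 173, 182 and 189.6 CPM in stress, with the groups mixed. Subunit genes of the receptor channels of GABA and glycine ranged from 27.8 for Glra2 and 22.1 for Gabra3 to 3.10 for Gabra4, 0.924 for Gabrg3 and 0.326 for Glra1, in CPM per kilobase. Gad1, Gad2 and Slc32a1 lay close together at 21.5, 23.4 and 20.3. The lowest member, Slc6a13, a GABA transporter known from meninges, had 5, 5, 4 and 7 counts in the control brains and 7, 12, 19 and 7 in the stressed brains, and was left out of the test. In a fit with no filter its Log2FC was 1.09 ± 0.39 SE (adjusted p = 0.0628). The brain with its highest count, stress M28, also had the highest summed level of 6 fibroblast and meningeal genes, 63.3 CPM against 16.0 to 29.1 CPM in control, and the part of these cells in its level was not tested.

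**Figure D2:**
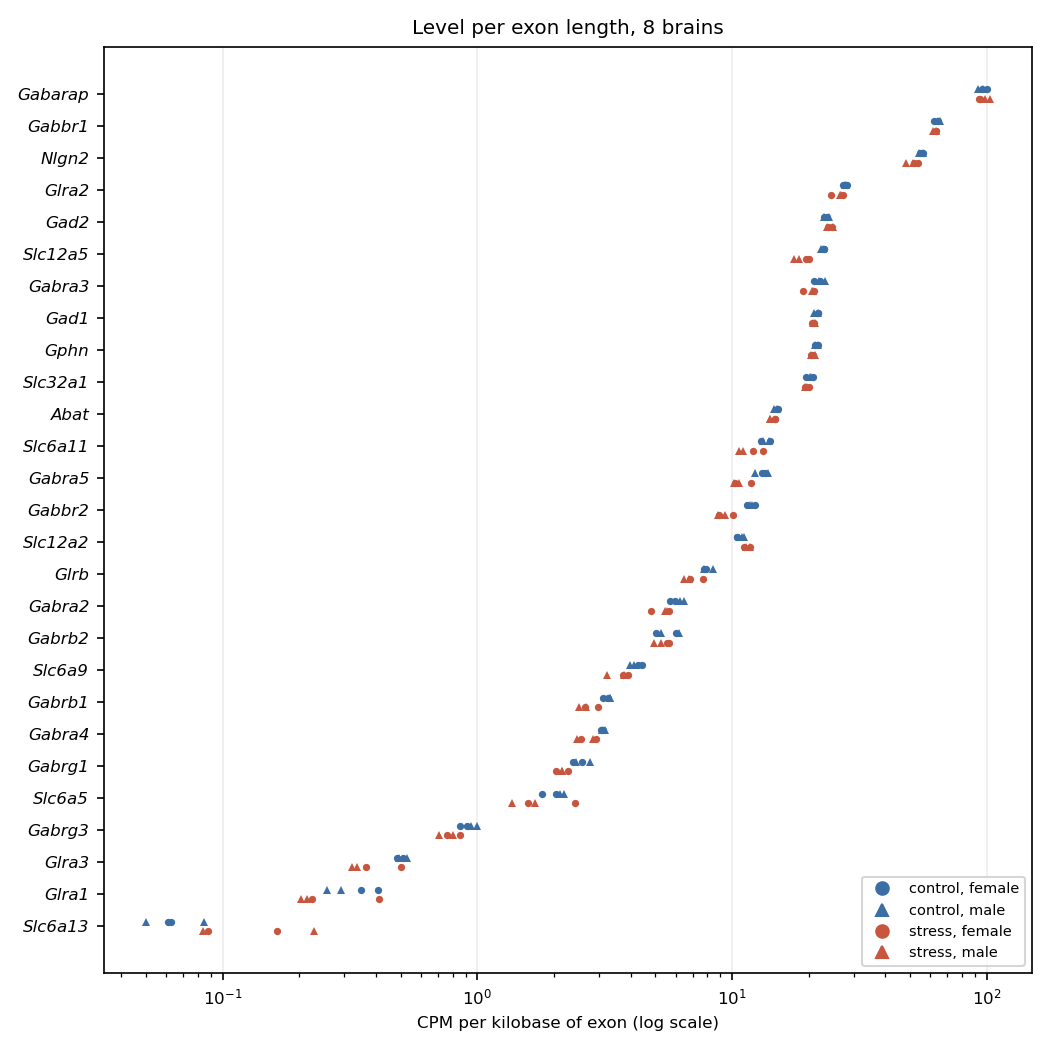
Level of each member in each of the 8 brains as CPM per kilobase of exon on a log axis, with blue for control, red for stress, circles for females and triangles for males. Gabarap, Gabbr1 and Nlgn2 lead at 96.1, 64.0 and 55.2 in control, and Slc6a13 is lowest at 0.0645.

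GABA-A receptors are pentameric chloride channels, and 7 of the 8 subunit genes examined were down-regulated in stressed brains. Gabra5, which encodes an alpha subunit found mostly in receptors outside synapses, was at 40.0, 38.9, 36.7 and 41.2 CPM in the control brains F36, F37, M30 and M31 and 30.5, 35.4, 31.7 and 30.2 CPM in the stressed brains F34, F35, M28 and M29. Every stressed brain was below every control brain, a fall of 18.6% (Log2FC -0.30 ± 0.048 SE, adjusted p = 0.000153). Gabrb1, a beta subunit gene, was at 43.1, 45.0, 46.0 and 46.0 CPM in control and 36.6, 41.3, 36.9 and 34.6 CPM in stress, and again the groups did not overlap (Log2FC -0.27 ± 0.046 SE, adjusted p = 0.000225). Among the stressed brains F35 was the highest for both genes.

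Gabra4, Gabra2 and Gabrg1 lie beside Gabrb1 on chromosome 5 of mm10, from Gabrg1 (chr5:70751047-70842617) through Gabra2 (chr5:70957597-71095849) and Gabra4 (chr5:71569749-71658308) to Gabrb1 (chr5:71658113-72149037), and all 4 were down-regulated. Gabrg1, a gamma subunit gene, was at 18.7, 20.3, 19.1 and 21.8 CPM in control and 16.0, 17.9, 16.9 and 16.9 CPM in stress (Log2FC -0.24 ± 0.057 SE, adjusted p = 0.00559). Gabra2, an alpha subunit gene, was at 45.6, 43.7, 49.5 and 47.8 CPM in control and 36.8, 43.3, 42.6 and 41.8 CPM in stress (Log2FC -0.18 ± 0.044 SE, adjusted p = 0.00587). In both, the highest stressed brain, F35, was just below the lowest control brain. Gabra4, whose start region is shown above, was at 18.5, 18.9, 18.7 and 19.3 CPM in control and 15.54, 17.7, 14.9 and 17.2 CPM in stress (Log2FC -0.21 ± 0.058 SE, adjusted p = 0.017). Its call was lost without any 1 of control M31, stress F34 or stress M28, with an adjusted p of up to 0.0919, and with DESeq2 (adjusted p = 0.052). The counting was not stated to use strand, and exons shared with another gene made up 0.756% of the exon bases of Gabra4 and 0.332% of those of Gabrb1. The share was 30.2% for Slc6a9 and 24.9% for Slc32a1, whose values are therefore less certain, and at most 5.84% for each of the other members.

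Gabrg3 on chromosome 7, next to Gabra5, was at 10.8, 10.2, 11.2 and 11.9 CPM in control and 10.2, 9.09, 9.55 and 8.43 CPM in stress (Log2FC -0.24 ± 0.075 SE, adjusted p = 0.0306), with stressed F34 slightly above control F37. Leaving out any 1 of 6 brains (control F36, M30 and M31, stress F35, M28 and M29) ended this call, with an adjusted p of up to 0.163, as did DESeq2 (adjusted p = 0.0928). Gabra3 on the X chromosome had the smallest fall of the 7, at 82.2, 86.7, 86.5 and 90.9 CPM in control and 74.7, 82.3, 81.4 and 81.0 CPM in stress (Log2FC -0.12 ± 0.034 SE, adjusted p = 0.0212). The groups of Gabra3 touched, since stressed F35 was above control F36, and its call was lost without any 1 of control F37 or M31 or stressed F34, M28 or M29 (adjusted p up to 0.0945). Gabrb2 on chromosome 11 was the subunit gene that did not pass, at a Log2FC of -0.074 (95% interval -0.19 to 0.042, adjusted p = 0.439).

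GABA-B receptors are G protein-coupled receptors that need both Gabbr1, which binds GABA, and Gabbr2, which couples to the G protein and brings the pair to the cell surface. Gabbr2 showed the clearest fall of any member together with Slc12a5. It was at 82.1, 76.3, 79.7 and 78.7 CPM in control and 59.6, 67.3, 62.9 and 59.0 CPM in stress, so that the highest stressed brain was well below the lowest control brain, and fell by 21.5% (Log2FC -0.35 ± 0.038 SE, adjusted p = 2.06e-06). Gabbr1 had a Log2FC of -0.028 (95% interval -0.081 to 0.025, adjusted p = 0.541). Gabbr2 over Gabbr1, as levels per kilobase, was 0.198, 0.178, 0.182 and 0.183 in the control brains and 0.142, 0.159, 0.149 and 0.143 in the stressed brains, a mean difference of -0.32 on the log2 scale (exact permutation test, two-sided, p = 0.0286, adjusted p = 0.0429 over 3 ratios). This p is the smallest that 4 against 4 brains allow, and the 3 ratios were picked after the values had been seen. Gabbr2 alone already separated the groups, so the p of this ratio adds little.

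The chloride cotransporters moved apart. Slc12a5, which encodes the neuronal chloride exporter KCC2, was at 171, 171, 166 and 169 CPM in control and 149, 146, 136 and 130.2 CPM in stress, with every stressed brain below every control brain and a fall of 17.2% (Log2FC -0.27 ± 0.03 SE, adjusted p = 2.06e-06). Slc12a2, which encodes the importer NKCC1 and is also used by progenitors, was at 68.3, 68.1, 71.1 and 72.5 CPM in control and 72.3, 77.0, 76.7 and 73.8 CPM in stress and was up-regulated by 7.08% (Log2FC 0.10 ± 0.033 SE, adjusted p = 0.046). Stressed F34 was below control M31 for Slc12a2, and its call was lost without any 1 of control F36, F37 or M30 or stressed F35 or M28 (adjusted p up to 0.161), and with DESeq2 (adjusted p = 0.107). Slc12a5 over Slc12a2, as levels per kilobase, was 2.19, 2.21, 2.04 and 2.04 in the control brains and 1.80, 1.66, 1.55 and 1.54 in the stressed brains, a mean difference of -0.37 on the log2 scale (exact permutation test, two-sided, p = 0.0286, adjusted p = 0.0429 over 3 ratios). Again this p is the smallest possible, and the ratio was picked after the values had been seen. The groups of Slc12a5 alone did not overlap, so the p of the ratio adds little.

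**Figure D3:**
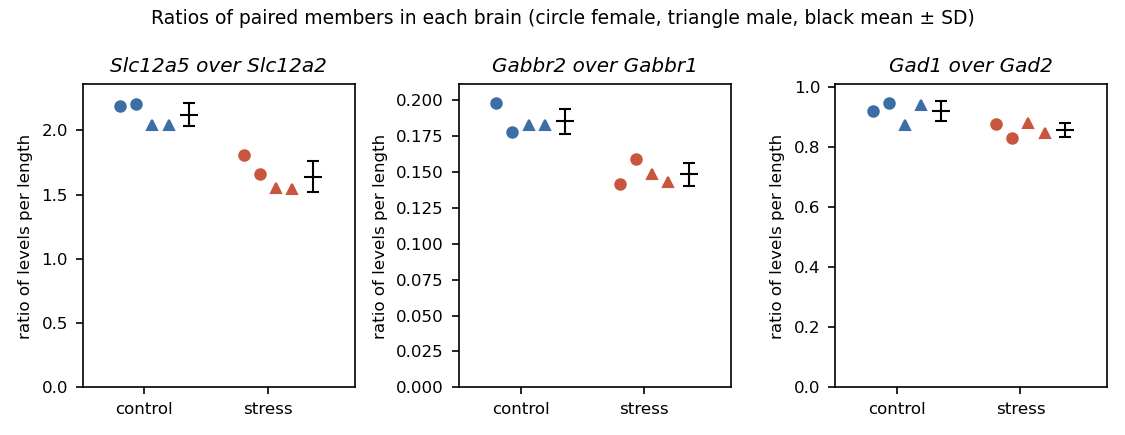
Ratio of levels per kilobase of 3 pairs of members in each brain, with circles for females, triangles for males and black marks for the group mean ± SD (n = 4). The groups are apart for Slc12a5 over Slc12a2 and for Gabbr2 over Gabbr1, and they overlap for Gad1 over Gad2.

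No gene of GABA synthesis or vesicular loading passed the test. Gad1 and Gad2, whose enzymes make GABA from glutamate, had a Log2FC of -0.048 (95% interval -0.10 to 0.0088, adjusted p = 0.278) and a Log2FC of 0.054 (95% interval -0.0063 to 0.11, adjusted p = 0.245). Slc32a1, which encodes the vesicular transporter VGAT of GABA and glycine, had a Log2FC of -0.051 (95% interval -0.12 to 0.021, adjusted p = 0.378), and 24.9% of its exon bases also lie in Gm14205 on the other strand. Gad1 was at 164 ± 3.12 CPM in control and 159 ± 2.12 CPM in stress (SD, n = 4), and Gad2 at 138 ± 2.73 CPM in control and 143 ± 3.98 CPM in stress (SD, n = 4). Gad1 over Gad2, as levels per kilobase, had a mean difference of -0.10 on the log2 scale (exact permutation test, two-sided, p = 0.0857, adjusted p = 0.0857 over 3 ratios).

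**Figure D4:**
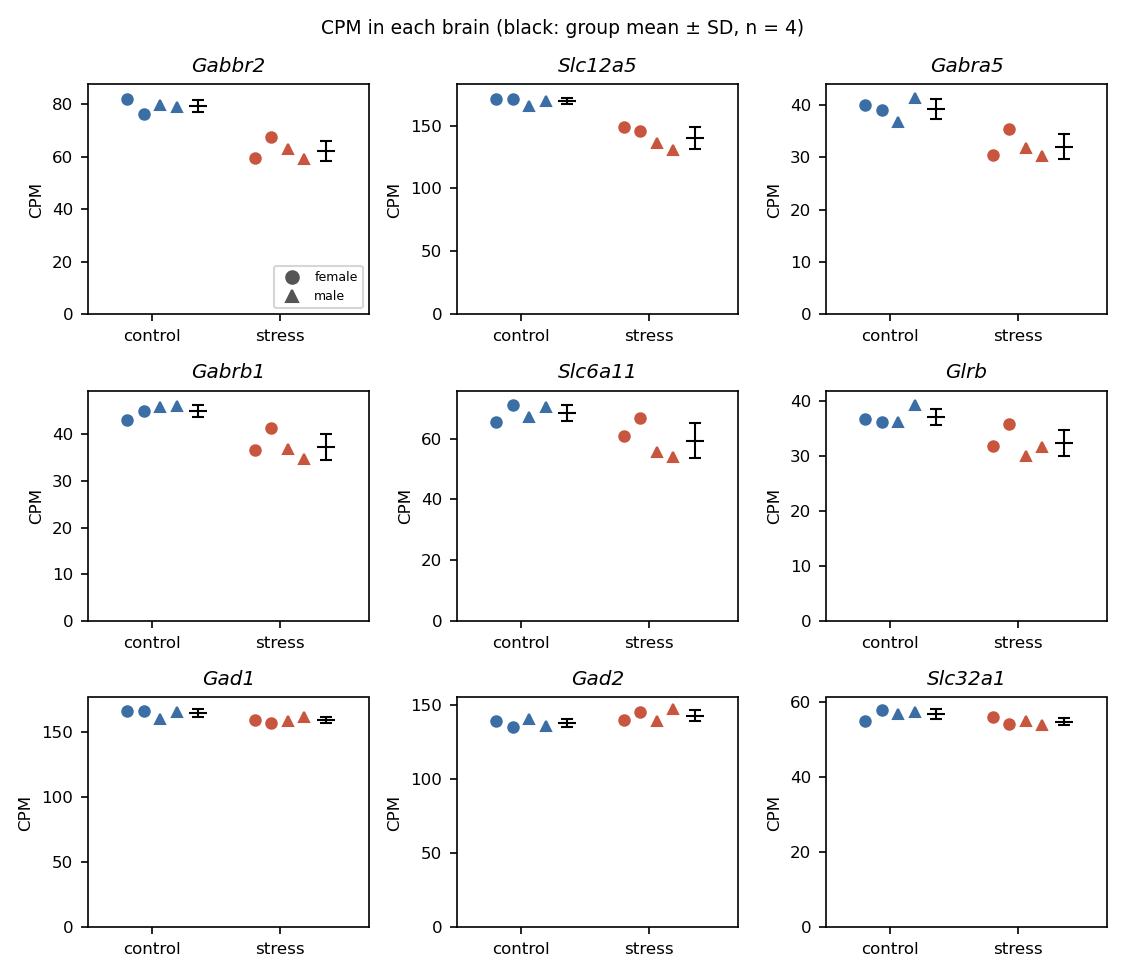
CPM in each brain for 6 down-regulated members and for Gad1, Gad2 and Slc32a1, with circles for females, triangles for males, black marks for the group mean ± SD (n = 4) and axes that start at 0. The stressed brains lie below the control brains for Gabbr2, Slc12a5, Gabra5, Gabrb1 and Glrb, while the groups of Slc6a11, Gad1, Gad2 and Slc32a1 overlap.

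Slc6a11 encodes GAT-3, a GABA uptake transporter typical of astrocytes and their precursors, and was at 65.5, 71.1, 67.0 and 70.4 CPM in control and 60.9, 66.7, 55.7 and 54.0 CPM in stress (Log2FC -0.21 ± 0.043 SE, adjusted p = 0.00156). Stressed F35 was above control F36, and the other stressed brains were below all control brains. Abat, which starts the breakdown of GABA, had a Log2FC of -0.053 (95% interval -0.11 to 0.0053, adjusted p = 0.237). Among scaffold and trafficking genes Nlgn2, the neuroligin of inhibitory synapses, was at 325, 315, 325 and 312 CPM in control and 311, 300.3, 298 and 279.8 CPM in stress (Log2FC -0.10 ± 0.029 SE, adjusted p = 0.0163). The groups of Nlgn2 were narrowly apart, and its call was lost without control M30 or stressed M29 (adjusted p up to 0.104) and without the sex term (adjusted p = 0.0549). Gphn, which encodes the scaffold gephyrin, had a Log2FC of -0.051 (95% interval -0.11 to 0.012, adjusted p = 0.299), and Gabarap a Log2FC of 0.017 (95% interval -0.049 to 0.082, adjusted p = 0.796).

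Glycine receptors are chloride channels of alpha subunits and the beta subunit Glrb, which also ties them to gephyrin. Glrb was at 36.7, 36.2, 36.2 and 39.3 CPM in control and 31.8, 35.7, 30.04 and 31.6 CPM in stress, with stressed F35 just below the control range (Log2FC -0.20 ± 0.048 SE, adjusted p = 0.00513). Glra3 was at 4.44, 4.69, 4.54 and 4.89 CPM in control and 3.37, 4.62, 3.10 and 2.97 CPM in stress (Log2FC -0.41 ± 0.12 SE, adjusted p = 0.0199). For Glra3 stressed F35 lay inside the control range and the other 3 stressed brains below it, and the call was lost without any 1 of control M30 or M31 or stressed F34, M28 or M29 (adjusted p up to 0.0843), and with DESeq2 (adjusted p = 0.0638). Glra2, the alpha subunit gene of fetal brain and the highest of the 4 per kilobase, had a Log2FC of -0.084 (95% interval -0.15 to -0.015, adjusted p = 0.0972), although its groups did not overlap. Glra1, the main adult alpha subunit of the spinal cord, was under 1 CPM in every brain with a Log2FC of -0.32 (95% interval -0.82 to 0.18, adjusted p = 0.434).

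Slc6a9, which encodes the glial glycine transporter GlyT1, was at 22.8, 21.9, 20.5 and 21.1 CPM in control and 19.99, 19.2, 19.4 and 16.6 CPM in stress, and the groups did not overlap (Log2FC -0.20 ± 0.053 SE, adjusted p = 0.0129). Of its exon bases 30.2% also lie in Ccdc24, Gm17114 or B4galt2 on the other strand. Reads there cannot be told apart without strand, and were not counted if defaults held. Its call was lost without stressed M29 (adjusted p = 0.0859). Slc6a5, the transporter of glycinergic neurons, was at 14.6, 12.9, 15.8 and 15.2 CPM in control and 11.3, 17.4, 9.86 and 12.2 CPM in stress, with stressed F35 the highest and stressed M28 the lowest of all 8 brains, and had a Log2FC of -0.21 (95% interval -0.43 to 0.0046, adjusted p = 0.197). Without stressed F35 it passed at a Log2FC of -0.41 (adjusted p = 0.00107), and so did Glra2 at -0.11 (adjusted p = 0.0284). Slc6a5 also passed with no filter on low counts (adjusted p = 0.0191).

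The brains differed in the level of Hox genes, which mark hindbrain and spinal cord. The summed level of 12 such genes was 144, 56.8, 74.7 and 67.8 CPM in control F36, F37, M30 and M31 and 25.5, 152, 18.7 and 63.2 CPM in stressed F34, F35, M28 and M29. Hoxb8, a gene of the caudal hindbrain and spinal cord, was at 11.4 CPM in control F36 and 14.8 CPM in stressed F35 and at or below 0.351 CPM in the other 6. With all brains, none of the 11 genes of this list that were tested passed, and their estimates ran from -0.80 to -0.021. Brain by brain, Slc6a5 was highest where this sum was highest (stressed F35) and lowest where it was lowest (stressed M28), and Glra1 was also lowest in stressed M28 and highest in stressed F35, close to control F36. The order between these ends did not match throughout. Control F36, with a sum of 144 CPM, had 14.6 CPM of Slc6a5, below control M30 at 15.8 CPM and M31 at 15.2 CPM. Glra1 had only 14 to 27 counts per brain, so its order is uncertain. The part of such tissue in the members' values was not tested beyond the fits that follow.

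**Figure D5:**
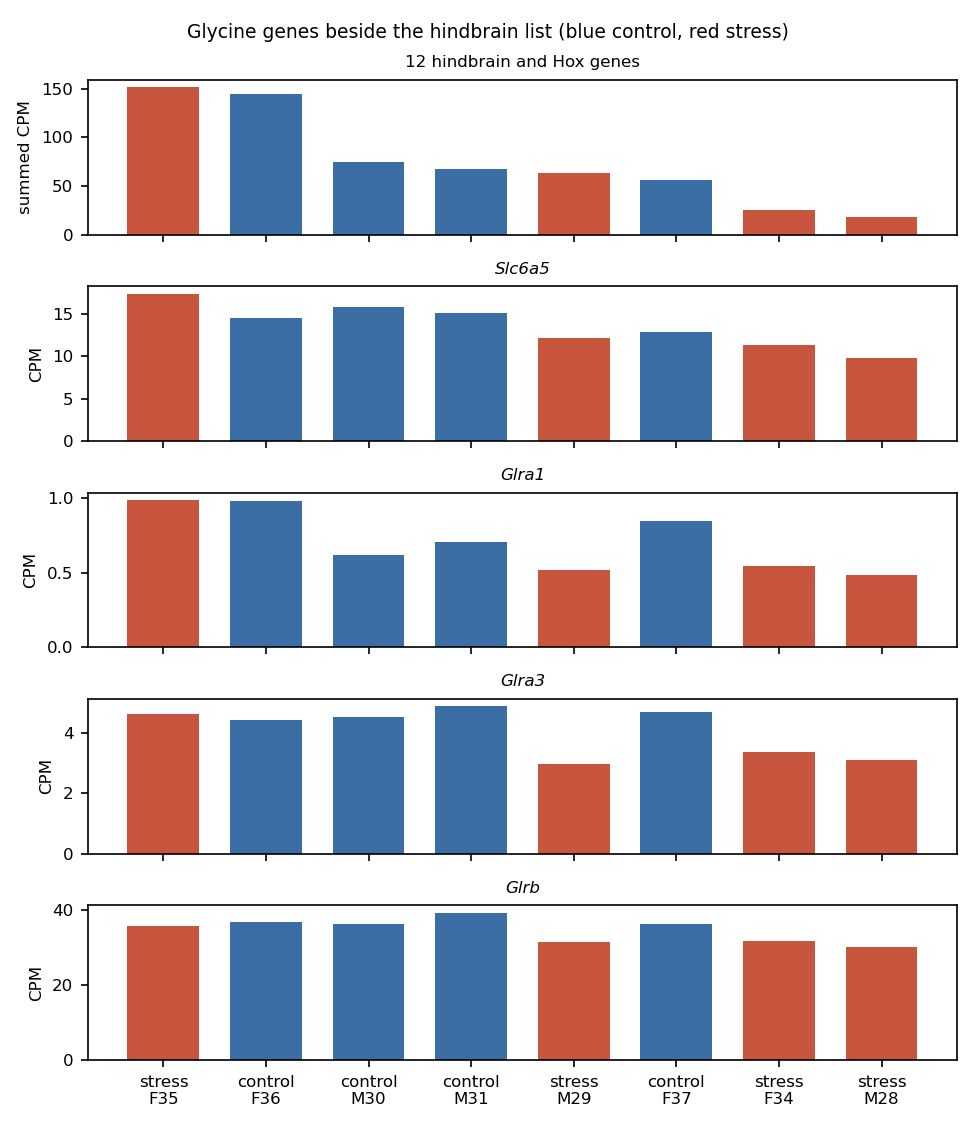
Summed CPM of 12 hindbrain and Hox genes (top) and CPM of Slc6a5, Glra1, Glra3 and Glrb in each brain, ordered by the top panel, with blue bars for control and red for stress. Stressed F35, with 152 CPM of the list, has the highest Slc6a5 and Glra1, and stressed M28, with 18.7 CPM, the lowest.

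The fits were repeated without control F36 and stressed F35, without stressed F34 and M28, whose Hoxa5 was below 2 CPM, and with the log2 sum of the hindbrain list as a covariate. These choices were made after seeing the data. Of the 11 tested genes of the hindbrain list, 5, 0 and 1 were down-regulated in these fits, in this order. The fit without control F36 and stressed F35 therefore does not even out that list, which stays lower in the stressed brains. Down-regulated members numbered 12, 8 and 11 in these fits, against 14 with all brains. These fits hold fewer brains or an added term, and the share of all genes down-regulated in each is not given here. The lower counts are therefore not read as particular to the members. In this order the Log2FC of Slc6a5 was -0.39 (adjusted p = 0.00237), 0.0044 (adjusted p = 0.989) and -0.049 (adjusted p = 0.76), and that of Glrb was -0.26 (adjusted p = 0.00145), -0.14 (adjusted p = 0.123) and -0.16 (adjusted p = 0.0334). Glra3 had -0.58 (adjusted p = 0.00267), -0.31 (adjusted p = 0.205) and -0.33 (adjusted p = 0.0839). Slc12a5 had -0.29 (adjusted p = 7.55e-06), -0.30 (adjusted p = 4.25e-05) and -0.28 (adjusted p = 4.67e-06) and Gabbr2 had -0.37 (adjusted p = 1.09e-06), -0.33 (adjusted p = 0.00014) and -0.32 (adjusted p = 1.34e-05), and both passed in each fit, as did Gabra5, Gabrb1 and Slc6a11. The calls of Gabra2, Gabra3, Gabra4, Gabrg1, Glra3, Glrb and Slc12a2 were lost without stressed F34 and M28, a fit of 4 against 2 brains, at a Log2FC of -0.13 for Gabra2 (against -0.18), -0.086 for Gabra3 (against -0.12), -0.11 for Gabra4 (against -0.21), -0.20 for Gabrg1 (against -0.24) and 0.11 for Slc12a2 (against 0.10). Those of Gabrg3, Nlgn2, Slc6a9 and Slc12a2 were lost without control F36 and stressed F35, a fit of 3 against 3, at -0.24 for Gabrg3 (against -0.24), -0.10 for Nlgn2 (against -0.10), -0.18 for Slc6a9 (against -0.20) and 0.074 for Slc12a2 (against 0.10). Those of Gabra3, Gabra4 and Glra3 were lost with the covariate, at -0.10 for Gabra3 (against -0.12) and -0.15 for Gabra4 (against -0.21).

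Other neuronal and progenitor genes also differed between the groups. Of 12 general neuronal markers, 6 were down-regulated, led by Gap43 (Log2FC -0.12 ± 0.029 SE, adjusted p = 0.00524) and Rbfox3 (Log2FC -0.13 ± 0.032 SE, adjusted p = 0.0088), none was up-regulated, and the list had a median Log2FC of -0.078 and a lowest value of -0.13. Their summed level was 8434 to 8679 CPM in control and 8190 to 8588 CPM in stress, which overlap. Of 10 progenitor markers, 6 were up-regulated, led by Top2a (Log2FC 0.24 ± 0.031 SE, adjusted p = 1.49e-05) and Mki67 (Log2FC 0.21 ± 0.03 SE, adjusted p = 3.25e-05), with sums of 1837 to 1960 CPM in control and 1909 to 2078 CPM in stress. The other 4 progenitor markers had estimates below 0, down to -0.097, and did not pass. Of other marker lists, 4 of 8 dorsal telencephalic genes were up-regulated and 1 down-regulated, 3 of 8 midbrain genes and 3 of 5 fibroblast genes tested were up-regulated, and 3 of 5 endothelial genes were down-regulated. With DESeq2 1 midbrain gene, 0 fibroblast genes and 2 endothelial genes passed. The summed fibroblast level was 63.3 CPM in stressed M28 and 20.7 to 31.9 CPM in the other stressed brains, and without stressed F34 and M28 Col1a1 did not pass (adjusted p = 0.448). Genes of muscle and skin summed to at most 0.760 CPM in any brain. The part of these shifts in the members' values was not tested. The falls of Gabbr2, Gabra5, Gabrb1 and Slc12a5, with Log2FC of -0.35, -0.30, -0.27 and -0.27, were each larger than that of any of the 12 neuronal markers.

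A list of 61 further GABA and glycine genes had 55 tested, with a median Log2FC of -0.049. Of the 55, 7 were down-regulated and 3 up-regulated, against 7.27% and 6.49% of all genes tested. The down-regulated genes were mostly of receptor trafficking and the inhibitory postsynapse, with 5 of 20 down-regulated and none up-regulated there. Hap1, which encodes a partner of huntingtin in the transport of GABA-A receptors, was at 297 ± 3.35 CPM in control and 261 ± 8.50 CPM in stress (SD, n = 4, Log2FC -0.19 ± 0.026 SE, adjusted p = 3.54e-05). Shisa7, which encodes an auxiliary GABA-A receptor protein, was at 192 ± 1.64 CPM in control and 169.6 ± 5.68 CPM in stress (SD, n = 4, Log2FC -0.18 ± 0.028 SE, adjusted p = 9.79e-05). Of 13 chloride transporter and kinase genes 1 passed, Slc12a7, another potassium-chloride cotransporter, which was at 27.02 ± 1.99 CPM in control and 32.3 ± 1.80 CPM in stress (SD, n = 4, Log2FC 0.26 ± 0.05 SE, adjusted p = 0.000812). Of 14 tested genes of transmitter supply and metabolism, Amt and Gldc encode parts of the glycine cleavage system and went in opposite directions, Amt being down-regulated (Log2FC -0.26 ± 0.04 SE, adjusted p = 8.02e-05) and Gldc up-regulated (Log2FC 0.23 ± 0.053 SE, adjusted p = 0.00353). None of 4 other ionotropic GABA receptor subunit genes that were tested passed, and 1 of 4 auxiliary GABA-B subunit genes was down-regulated.

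Females and males were compared by a sex by stress interaction. No member passed after adjustment by edgeR or by DESeq2, against 0.0056% of all genes tested by edgeR. By edgeR 5 of the 26 members had an unadjusted p under 0.05, against 6.31% of all genes. These were Slc6a11 with a Log2FC of -0.10 ± 0.053 SE in the females and -0.33 ± 0.053 SE in the males, Slc6a5 with 0.06 ± 0.13 SE in the females and -0.49 ± 0.13 SE in the males, Gabarap with -0.062 ± 0.039 SE in the females and 0.095 ± 0.038 SE in the males, Gabrb1 with -0.18 ± 0.06 SE in the females and -0.36 ± 0.059 SE in the males and Slc12a5 with -0.21 ± 0.038 SE in the females and -0.33 ± 0.038 SE in the males. Their adjusted p ran from 0.562 to 0.765. All 15 members that passed in the comparison of stress and control had the same sign in both sexes. They were called on these same brains with both sexes together, which favours a shared sign, so this is no separate evidence. For Slc6a5 the 2 stressed females were the ones at 11.3 and 17.4 CPM, whose hindbrain sums were 25.5 and 152 CPM.

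With DESeq2's Wald test on the same counts 11 members were down-regulated and none up-regulated, against 5.1% of all genes down-regulated and 4.19% up-regulated. The edgeR call was kept in each of the 8 fits that left out 1 brain by 8 members, namely Gabra2, Gabra5, Gabrb1, Gabrg1, Gabbr2, Slc6a11, Slc12a5 and Glrb. Fewest members, 9, were down-regulated without stressed M29.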

How the data were processed

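Poly(A) RNA of 8 brains was sequenced by the authors (BGISEQ, paired reads), trimmed with Trim Galore, aligned to mm10 with TopHat2 2.1.1 and counted on GENCODE exons with featureCounts 1.6.3. The deposited values are raw counts per gene, with no normalization. No strand setting is given in the sources used here, and reads on several genes or places were not counted if defaults held.

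Groups and sex came from the sample labels. Genes were kept with filterByExpr (minimum count 10, by group), scaled by TMM and tested with edgeR 4.0.16 (glmQLFit, glmQLFTest; R 4.3.3) with sex and condition in the model. P-values were adjusted over all 17865 genes tested (Benjamini-Hochberg), and genes under 0.05 were called up- or down-regulated. Standard errors came from Log2FC and F. The study's model also held batch, which is not named for these libraries. Alternatives were DESeq2 1.42.0, other size factors, upper-quartile scaling, no filter, no sex term and each brain left out. The fits were tested on simulated data. Symbols were matched for 54723 of 54752 identifiers. Total counts of 25320109 to 29105710 per brain limit precision mainly for members under 1 CPM.

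The members and all gene lists were chosen with earlier results of these data known. All members are named, with values per brain for those called and for the highest and lowest. Of other pathway genes the 5 with the smallest p are named, and of each marker list at most 3. Hoxb8 and Hoxa5 were named after their values were seen. A list of subpallial genes is not reported here.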

Additional observations from a re-analysis of the deposited data

Results flagged for a closer look

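In 3 of 54 groups of 4 brains read for the 27 members, 1 brain stood apart from the other 3 by a gap beyond Dixon's 95% limit, where chance gives about 1 in 20. These were stressed F34 for Gabra3 at 74.7 CPM, control M30 for Gad1 at 159.8 CPM, both low, and stressed F35 for Glra1 at 0.988 CPM, which was high. Gabarap went in opposite directions in the sexes, with both stressed females below both control females and both stressed males above both control males, and a male minus female difference in Log2FC of 0.16 (edgeR interaction, unadjusted p = 0.00832, adjusted p = 0.592).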

How the results depend on the processing

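Scaling by median of ratios or upper quartiles left the count of down-regulated members at 14, no filter gave 15, no sex term 13 and DESeq2 11. For the scaling, filter and sex-term settings the totals over all genes are not given here. Changes in these counts are therefore not read as particular to the members. The up-regulated member (Slc12a2) was lost, leaving 0, with upper-quartile scaling, no filter, DESeq2, without control F36 and stressed F35 and without stressed F34 and M28. Without 1 brain, 9 to 15 members were down-regulated and 0 to 1 up-regulated, the median Log2FC of members ran from -0.21 to -0.14, and among all genes 736 to 1057 were up-regulated and 854 to 1308 down-regulated (against 1160 and 1298). DESeq2 gave 748 up-regulated and 911 down-regulated genes. Other pathway genes down-regulated ranged from 4 to 10 (against 7) and neuronal markers from 2 to 7 (against 6). Without the sex term 3 neuronal markers were down-regulated. Without stressed F34 and M28, 741 genes were up-regulated, 8 members, 4 other pathway genes and 1 neuronal marker were down-regulated, and the members' median was -0.10. With the hindbrain covariate 4 other pathway genes and 2 neuronal markers were down-regulated, and the median was -0.13. Signs turned only for members that had not passed, Slc6a5 at 0.0044 without stressed F34 and M28, and Gabarap, which ran from -0.011 to 0.044 without 1 brain. The cause of these shifts was not tested. No paired analysis was possible because the stressed and control brains are of different animals and the labels pair none of them.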
